A study of Mus musculus with 19 samples.

Results

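The p53 pathway and apoptosis genes described here are 10 mouse genes: Trp53, Mdm2, Bax, Bbc3, Pmaip1, Ccng1, Trp53inp1, Sesn2, Phlda3 and Zmat3. They were taken by symbol, and all 10 were found among the 24062 genes of the bulk read count table and among the 31053 features of the day 8 single-cell matrix. Trp53 encodes p53, a transcription factor that is held at a low level by the ubiquitin ligase Mdm2 and accumulates after DNA damage and other stress. Its targets stop the cell cycle, repair damage, alter metabolism or start mitochondrial apoptosis through the BCL-2 family, and Mdm2 is itself a target that closes a feedback loop. In the intestine, p53 and the BH3-only protein PUMA (Bbc3) are known for the response of crypt cells to irradiation. Much of p53 activity is set by protein stability and modification, which RNA levels do not measure.

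The study followed mouse colon crypts as they replace lost stem cells, and the embryonic hindgut epithelium as it matures. The adult mice had a mixed C57BL/6 129/Sv background, and their colon epithelial cells were sorted on mCherry or GFP. Wild-type stem cells (WT, 3 libraries) and regenerating cells (REGEN, 2 libraries) carried an Ascl2(mCh) reporter and the Lgr5Dtr-Egfp allele, which puts the diphtheria toxin receptor and GFP under Lgr5. Regeneration followed diphtheria toxin at 50 ug/kg, given 4 times on alternate days. Ascl2-deleted stem cells (KO, 2 libraries) carried Ascl2Fl/Fl and Lgr5EGFP-Cre, so that deletion was limited to cells with an active Lgr5 locus, and tamoxifen was given at 2 mg on the first and second day and 1 mg on the third. Genotype, reporter allele, drug and sort differ together between KO and the other groups and cannot be told apart. Epcam-positive hindgut cells came from wild-type CD1 embryos of 4 ages, with 2 libraries each of E11, E12, E14 and E16 (embryonic day). A single 10x library held mCherry-positive, GFP-negative regenerating cells on day 8.

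Each bulk library held between 13826958 and 30583908 reads in genes. Ascl2, the deleted gene, stood at 56.5 ± 3.81 CPM (counts after scaling for library total and TMM factor; SD, n = 2) in KO against 122 ± 25.8 (n = 3) in WT, and the table does not show which exons the reads fell in. The epithelial marker Epcam was at 2539 ± 567 CPM in WT and the stem cell marker Lgr5 at 41.1 ± 12.8 CPM, against 4.49 ± 3.81 in REGEN and 6.99 ± 4.63 in KO. In KO, 51.2 to 51.4% of reads aligned to more than 1 place, against 39.1 to 40.2% in WT, and the scaling factors were 0.616 and 0.660 against 1.21 to 1.32. The E16 libraries stood apart from the younger ages: summed CPM of 11 stromal genes was 8156 to 9479 against 189 to 320, and of 12 immune cell genes 1830 to 1959 against 3.96 to 43.3. Xist and Ddx3y levels differed between libraries within WT and within KO, and no fit had a term for sex. The labels name the hindgut samples biological replicates, and for the adult groups they do not say whether the samples came from separate animals. Xist was at 50.0 and 0.0916 CPM in KO replicates 1 and 2 and at 28.5 and 0.292 CPM in WT replicates 1 and 2. Ddx3y was at 0.453 and 25.0 CPM in the same KO libraries and at 0 and 13.1 CPM in the same WT libraries. These pairs were thus not repeats of 1 RNA sample. WT replicate 3 held both genes, Xist at 18.2 and Ddx3y at 12.8 CPM, and whether it shared animals with the other WT libraries is not known. Both REGEN libraries were low in Xist, so this is not known for REGEN. The adult p-values measure only the spread between these samples, which may be technical in REGEN. All 8 hindgut libraries held both genes, Xist at 58.2 to 162 CPM and Ddx3y at 20.5 to 63.8 CPM.

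The promoters of Bax and Ccng1 are shown because these are the members that changed in both the adult and the embryonic comparisons, in opposite directions each time. RefSeq windows from 250 bases before to 50 after the transcription start (GRCm38.p6) were found for 7 of the 10 genes; Pmaip1, Trp53inp1 and Zmat3 had none in the table. They were searched for the p53 response element, a pair of 10-base half-sites with a spacer of 0 to 13 bases, allowing 2 mismatches in all with the core C and G kept; the element reads the same on both strands. A match was found in Bax and in Ccng1 and in none of the other 5, beside 4.09% of 32851 windows and 4.71% of 27025 genes. The 120 bases below run 5′ to 3′ from 250 to 131 bases before each start, with the half-sites in capitals.
Bax, chr7:45467029-45467148, minus strand: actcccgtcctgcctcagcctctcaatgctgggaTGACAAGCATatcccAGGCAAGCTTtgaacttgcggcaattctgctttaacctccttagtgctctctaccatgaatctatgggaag
Ccng1, chr11:40755417-40755536, minus strand: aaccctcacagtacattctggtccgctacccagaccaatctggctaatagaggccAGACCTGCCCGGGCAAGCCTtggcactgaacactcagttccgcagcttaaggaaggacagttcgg
The Bax match has 2 mismatches and a spacer of 5 bases and begins 216 bases before the start. The Ccng1 match has 1 mismatch and no spacer and begins 195 bases before it. Of 28 other p53 target genes with a window, 5 held a match. Bases outside the windows, introns further downstream among them, were not searched, so a gene without a match here may hold an element elsewhere. A match describes letters only, and binding of p53 was not measured.

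The first adult comparison asked how these genes stood in regenerating cells against resting stem cells. None of the 10 genes passed the test (edgeR's quasi-likelihood test, Benjamini-Hochberg adjusted p under 0.05), beside 0.331% of the 13911 genes tested; 1 member had an unadjusted p under 0.05, against 10.5% of all genes, and DESeq2 called none. Groups did not overlap for 2 members, Trp53inp1 and Mdm2, against 28.9% of all genes. The median log2 fold change of the 10 was -0.26, against 0.01 for all genes. On simulated counts this comparison called 1 of 100 changes of 2-fold, so a missing call does not show that a gene was unchanged.

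Trp53inp1 encodes a stress-induced nuclear protein that promotes p53 phosphorylation and autophagy. It stood at 1.35, 16.04 and 13.2 CPM in WT replicates 1 to 3 and at 34.9 and 47.5 CPM in REGEN. Both REGEN libraries lay above all 3 WT libraries, and WT replicate 1 was far below the others. The log2 difference of 2.02 ± 0.77 (SE) did not pass the test (adjusted p = 0.380). In these bulk samples a change in the share of a cell type and a change of RNA per cell cannot be told apart: the summed CPM of 9 goblet genes was 18633 and 32548 in REGEN against 2531 to 7473 in WT, and of 6 deep crypt secretory genes 42641 and 28190 against 1026 to 3431. Their part in the Trp53inp1 levels was not tested in bulk, and its level by cell cluster is given further on.

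Mdm2 was at 37.2 and 39.6 CPM in REGEN and at 25.5, 35.2 and 29.8 CPM in WT, a log2 difference of 0.35 ± 0.28 (adjusted p = 0.808). Trp53 itself was at 152 and 119 CPM in REGEN and at 168, 235 and 129 CPM in WT, and the ranges overlapped. Bax, the pore-forming effector of mitochondrial apoptosis, was at 169 and 138 CPM in REGEN and at 161, 156 and 137 CPM in WT. The Bax log2 difference was 0.02 ± 0.20. Its 95% interval by the normal approximation ran from -0.37 to 0.40, narrower than the few degrees of freedom of the test would give. Cdkn1a, which encodes the cell cycle inhibitor p21 and is the classical p53 target, averaged 86.2 ± 55.8 CPM in REGEN and 145 ± 59.4 CPM in WT (adjusted p = 0.693). None of the 35 other p53 targets, 21 regulators, 7 pro-apoptotic and 5 anti-apoptotic BCL-2 genes, 15 caspase and apoptosome genes or 8 death receptor genes tested passed.

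**Figure D1:**
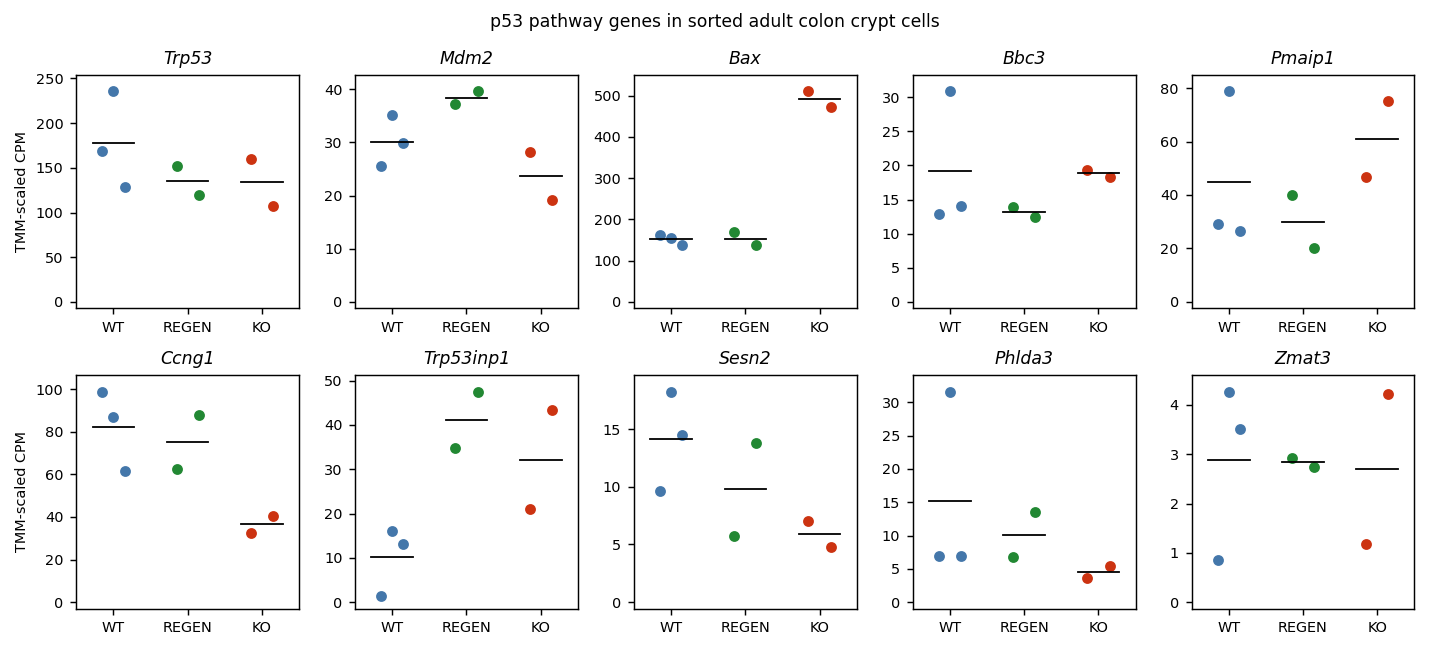
TMM-scaled CPM of the 10 genes (vertical axes, each from about 0) in WT, REGEN and KO libraries (horizontal axis); points are libraries and bars are group means. Bax in KO (473 and 510.4 CPM) lies above every WT and REGEN library, Ccng1 in KO (32.4 and 40.5 CPM) lies below them, and WT replicate 2 is the highest WT library for Bbc3, Pmaip1 and Phlda3.

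In Ascl2-deleted cells against WT, Bax was 3.25-fold higher and Ccng1 2.26-fold lower, while the groups overlapped for Trp53, Mdm2, Bbc3, Pmaip1 and Zmat3. These 2 of 10 members, 1 higher and 1 lower, passed the test, beside 36.2% of all genes tested (18.8% higher, 17.4% lower). Groups did not overlap for 5 members, against 58.0% of all genes. The members' median log2 fold change was -0.22, against -0.02 for all genes.

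Bax was at 510.4 and 473 CPM in KO and between 137 and 169 CPM in all 5 WT and REGEN libraries. The log2 fold change was 1.70 ± 0.19 against WT (adjusted p = 0.000249) and 1.68 ± 0.22 against REGEN (adjusted p = 0.000703), comparisons that share the KO libraries. Against REGEN the same 2 members passed, beside 31.4% of all genes, and the groups did not overlap for 6, beside 69.8%. With scaling by library size in place of TMM, which moved the median of all genes by -0.98, Bax against WT had a log2 fold change of 0.71 (adjusted p = 0.0143). With offsets for genomic span it was 1.16 (adjusted p = 0.00247).

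Ccng1 encodes cyclin G1, a p53 target that recruits a phosphatase to Mdm2. It was at 32.4 and 40.5 CPM in KO, at 98.7, 86.7 and 61.6 CPM in WT and at 62.4 and 87.9 CPM in REGEN. Every KO library lay below every WT and REGEN library. The log2 fold change was -1.18 ± 0.28 against WT (adjusted p = 0.0115; -2.16 with library size scaling) and -1.04 ± 0.30 against REGEN (adjusted p = 0.0289). The call against WT was lost without KO replicate 1 (log2 -1.04, adjusted p = 0.0852). The call against REGEN was lost without REGEN replicate 2, KO replicate 1 or KO replicate 2, with adjusted p from 0.0649 to 0.160.

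The other targets among the members gave no call in the edgeR fit to the 7 adult libraries. Phlda3, which encodes an inhibitor of AKT signalling, was at 3.62 and 5.41 CPM in KO and at 6.96, 31.6 and 6.94 CPM in WT. Its log2 difference of -1.75 ± 0.77 (adjusted p = 0.109) rested on WT replicate 2, and was -0.62 without that library. Sesn2 encodes sestrin 2, which restrains mTORC1. It was at 7.06 and 4.76 CPM in KO and at 9.66, 18.2 and 14.45 CPM in WT (log2 -1.25 ± 0.53, adjusted p = 0.0972). Trp53inp1 was at 20.9 and 43.4 CPM in KO, above all WT libraries, with a log2 difference of 1.66 ± 0.77 (adjusted p = 0.126). With no filter on low counts or with DESeq2, Trp53inp1 and Phlda3 passed as well, and with library size scaling Trp53, Mdm2, Sesn2 and Phlda3 passed as lower. Library size scaling called 5328 of all 13911 genes tested as lower.

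The BH3-only members Pmaip1 and Bbc3 overlapped between KO and WT but not between KO and REGEN, where neither passed (adjusted p = 0.209 for Pmaip1 and 0.456 for Bbc3). Pmaip1, which encodes NOXA, was at 46.8 and 75.2 CPM in KO, at 29.1, 78.8 and 26.6 CPM in WT and at 40.04 and 20.04 CPM in REGEN. Bbc3 was at 19.4 and 18.2 CPM in KO, at 12.9, 30.8 and 14.01 CPM in WT and at 13.97 and 12.4 CPM in REGEN. In both genes WT replicate 2 was above every other adult library. Trp53 was at 159.95 and 107 CPM in KO, within the WT range except for replicate 2 of KO. Zmat3, a p53 target that encodes an RNA-binding protein, was below 5 CPM in every adult library.

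Other p53 targets were called in both directions in KO, as were all genes. Of 35 tested, 6 rose and 7 fell against WT, beside 18.8% of all genes higher and 17.4% lower. Their median log2 fold change of -0.08 lay near that of all genes. Cdkn1a rose from 145 ± 59.4 to 982 ± 293 CPM (log2 2.76 ± 0.46, adjusted p = 0.00188). The TRAIL receptor gene Tnfrsf10b rose by 3.20 ± 0.69 on the log2 scale, the stress cytokine gene Gdf15 by 3.14 ± 0.61, the polyamine acetyltransferase gene Sat1 by 2.79 ± 0.29 and the ribosomal protein gene Rps27l by 2.76 ± 0.20. The nuclease gene Aen fell (log2 -2.10 ± 0.51), as did Abhd4 (-1.84 ± 0.32), Psrc1 (-2.55 ± 0.63) and Pidd1 (-2.94 ± 1.01). The calls of Psrc1 (without either KO replicate), Aen (without KO replicate 1) and Pidd1 (without KO replicate 2, WT replicate 2 or either REGEN replicate) were lost, with adjusted p from 0.0594 to 0.164. Pidd1 was also not called with RLE scaling (adjusted p = 0.0502), with the replicate block (0.0610) or with the 2 groups alone (0.0819).

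Among 21 regulators tested, 6 rose and 2 fell against WT. For this list and the next ones, the shares over all genes in KO vs WT were 18.8% higher and 17.4% lower. With library size scaling the split of regulators was 1 higher and 9 lower. The damage kinase gene Atr rose (log2 2.77 ± 0.56, but 1.84 and adjusted p = 0.0755 without KO replicate 1) and the p53 kinase gene Hipk2 fell (log2 -2.05 ± 0.47). Mdm4, the partner of Mdm2 in holding p53 down, averaged 13.1 ± 7.64 CPM in KO and 6.33 ± 4.17 CPM in WT and did not pass (adjusted p = 0.277). Of 7 pro-apoptotic BCL-2 genes tested beside the members, 2 rose and 1 fell. The rises were the BH3-only genes Bad (log2 2.13 ± 0.19) and Bik (2.54 ± 0.57), and the fall was the BH3-only gene Bid (-2.05 ± 0.32). Of 5 anti-apoptotic genes 0 rose and 2 fell, of 15 caspase and apoptosome genes 2 rose and 4 fell, and of 8 death receptor genes 1 rose and 2 fell. With library size scaling the split of p53 targets was 5 higher and 14 lower, of caspase and apoptosome genes 1 and 8, of death receptor genes 1 and 3, of pro-apoptotic genes 1 and 1 and of anti-apoptotic genes 0 and 3. With that scaling 1233 of all 13911 genes tested were called higher and 5328 lower. Against REGEN, 6 of 35 targets rose and 5 fell, beside 31.4% of all genes called. With library size scaling 5 were higher and 15 lower. The rises with TMM scaling included Cdkn1a (log2 3.51 ± 0.55) and Rps27l. Over all genes, library size scaling gave 1070 higher and 4408 lower against REGEN.

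Markers of other cells moved with KO as well. The summed CPM of 11 stromal genes was 145 to 224 in KO against 6.37 to 13.03 in WT, with 6 of 10 tested genes higher, and of 12 immune genes 150 to 366 against 2.37 to 49.2, with 3 of 11 higher. Absorptive colonocyte genes summed to 18550 to 25757 CPM against 2140 to 14421, and goblet genes to 36812 to 46991 CPM. Enteroendocrine genes summed to 1921 to 2529 CPM against 90.5 to 222, and crypt stem cell genes to 416 to 462 against 1254 to 1468, with 7 of 9 tested lower. The sum of 18 mitosis and S phase genes overlapped, at 1776 to 2118 CPM in KO and 1586 to 2473 in WT, with 3 of its genes higher and 7 lower. The part of these cells in the levels of Bax and Ccng1 was not tested.

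**Figure D2:**
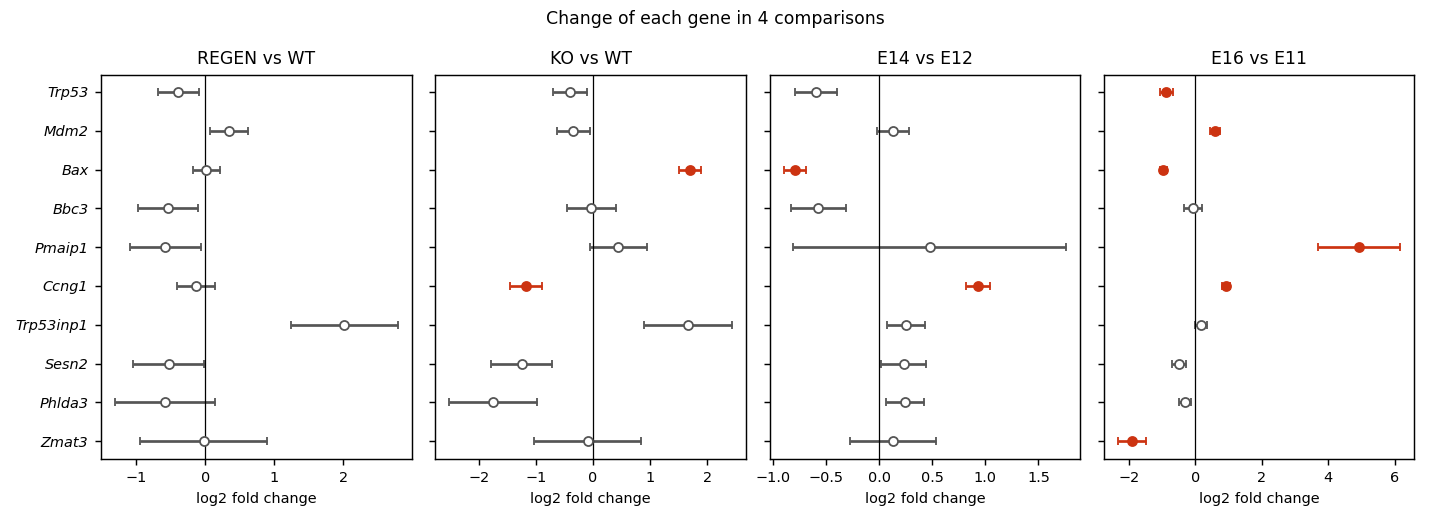
Log2 fold change (horizontal axis, a scale of its own in each panel) with its SE for the 10 genes in 4 comparisons; filled red points passed the edgeR test and open points did not. Bax and Ccng1 are filled on opposite sides of 0 in KO vs WT, E14 vs E12 and E16 vs E11, and no gene is filled in REGEN vs WT.

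In the hindgut, Trp53, Bax and Zmat3 fell and Mdm2, Pmaip1 and Ccng1 rose between E11 and E16. These 6 of 10 members passed the test, beside 55.7% of the 16481 genes tested (29.6% higher, 26.2% lower), and groups did not overlap for 9 members, beside 78.2% of all genes. The members' median log2 fold change was -0.19, against 0.05 for all genes. An F test over the 4 ages called the same 6 genes, beside 63.0% of all genes. Without the E16 libraries it called 2, Bax and Ccng1 (adjusted p = 0.00111 and 0.00215). In that fit Mdm2 (log2 0.55, adjusted p = 0.0306), Bax (-1.17, 0.000461) and Ccng1 (0.98, 0.00150) passed between E11 and E14, beside 6196 of the 15443 genes tested.

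Trp53 was at 275 and 316 CPM at E11, 441 and 275 CPM at E12, 239.6 and 234 CPM at E14 and 160.4 and 162 CPM at E16. The E16 libraries lay below all others, with a log2 fold change of -0.87 ± 0.20 from E11 (adjusted p = 0.00690). Neither single step passed: E14 against E12 gave -0.60 ± 0.20 (adjusted p = 0.0554) and E16 against E14 gave -0.56 ± 0.20 (adjusted p = 0.0562). Of 14 alternative fits of each step, 2 called the first and 8 called the second. The start of Trp53 lies beside the antisense gene Wrap53, and the strand setting of the counting is not given in the sources used here, so reads of the pair may not be told apart there.

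Mdm2 was at 68.7 and 92.3 CPM at E11, 102 and 109 CPM at E12, 109.7 and 122 CPM at E14 and 125 and 118 CPM at E16. All later libraries lay above both E11 libraries. The log2 rise from E11 to E16 was 0.59 ± 0.15 (adjusted p = 0.0118) and was not called without E16 replicate 1 (0.57, adjusted p = 0.0582). From E11 to E16 Mdm2 thus rose and Trp53 fell, but not step by step. In the step from E11 to E12 Mdm2 gave a log2 difference of 0.39 and Trp53 0.28, and neither passed. In the later steps, where Trp53 was lower each time, Mdm2 gave 0.13 and 0.07.

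Bax was at 244 and 246 CPM at E11, 198 and 172 CPM at E12, 105 and 108 CPM at E14 and 119 and 132 CPM at E16. The step from E12 to E14 passed (log2 -0.80 ± 0.10, adjusted p = 0.00186), with Bax and Ccng1 called beside 28.3% of all genes and 7 members not overlapping beside 70.1%, and the step from E14 to E16 did not (0.23 ± 0.10, adjusted p = 0.113). Between E11 and E16 it fell by 0.97 on the log2 scale (SE 0.10, adjusted p = 0.000190). Ccng1 moved the other way: it was at 54.7 and 62.9 CPM at E11, 59.4 and 59.95 CPM at E12, 109 and 119 CPM at E14 and 112 and 111 CPM at E16. Its levels formed a low pair of ages and a high pair, with all 4 later libraries above all 4 earlier ones. The rise fell in the step from E12 to E14 (log2 0.93 ± 0.11, adjusted p = 0.00151). Both calls of this step were kept in every fit that left out a hindgut library.

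**Figure D3:**
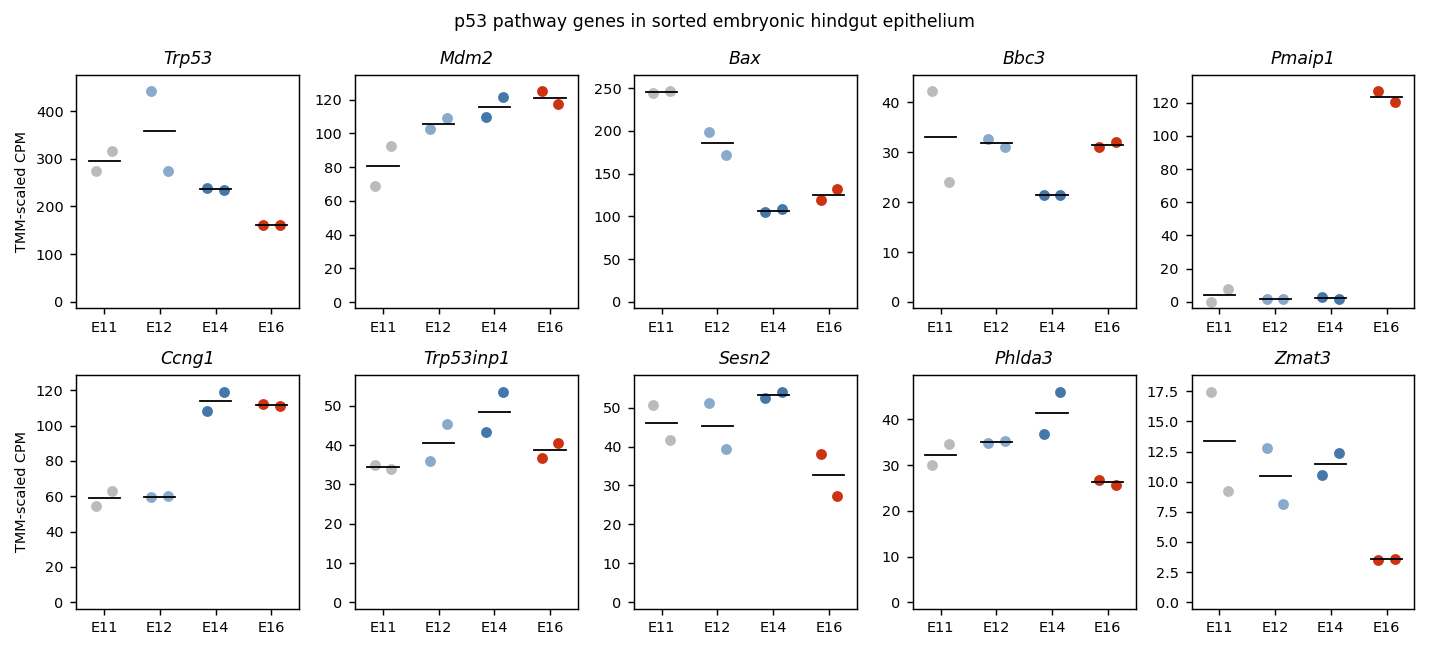
TMM-scaled CPM of the 10 genes (vertical axes, each from about 0) at the 4 hindgut ages (horizontal axis); points are libraries and bars are group means. Bax falls and Ccng1 rises between E12 and E14, and Pmaip1 stands below 8 CPM up to E14 and above 120 CPM at E16.

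Pmaip1 was at 0 and 7.99 CPM at E11, 1.42 and 1.74 CPM at E12, 2.92 and 1.49 CPM at E14 and 127 and 120.3 CPM at E16. Both E16 libraries were far above all 6 earlier ones. The log2 fold change was 5.81 ± 1.32 from E14 (adjusted p = 0.0108) and 4.93 ± 1.24 from E11 (adjusted p = 0.0112). With any 1 of the 4 E14 and E16 libraries left out, the step from E14 had adjusted p from 0.0503 to 0.0843, and the change from E11 had 0.0532 without E16 replicate 1. The change from E11 was 3.95 without E11 replicate 1, and without E11 replicate 2 the remaining E11 library was at 0, so that no fold is given. Stromal, immune, endothelial and red cell markers were raised in the same 2 libraries: 10 of 11 stromal, 9 of 12 immune, 2 of 6 endothelial and 3 of 4 red cell genes tested were higher than at E14. Goblet genes rose too, from 64.2 and 60.6 CPM in sum at E14 to 7439 and 8141 CPM at E16. Ambiguous reads were 3.09 and 3.50% of the E16 libraries, against 0.812 to 0.866% at younger ages. The part of these in the Pmaip1 level was not tested.

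Besides Pmaip1, 3 members passed in the step from E14 to E16, all lower, while 39.6% of all genes were called and 19.0% were lower. Groups did not overlap for 8 members, beside 78.7% of all genes. Zmat3 was at 17.5 and 9.22 CPM at E11, 12.8 and 8.19 CPM at E12, 10.5 and 12.4 CPM at E14 and 3.51 and 3.61 CPM at E16 (log2 -1.68 ± 0.43 from E14, adjusted p = 0.0168). Sesn2 was between 39.5 and 54.1 CPM up to E14 and at 38.0 and 27.4 CPM at E16 (log2 -0.70 ± 0.21, adjusted p = 0.0327). Phlda3 was between 29.9 and 46.04 CPM up to E14 and at 26.7 and 25.7 CPM at E16 (log2 -0.66 ± 0.18, adjusted p = 0.0215). Each left-out E14 or E16 library reduced the 4 calls of this step to 0 or 1, and either left-out E11 library raised them to 6 by adding Trp53 and Bbc3. The fall of Zmat3 from E11 to E16 (log2 -1.90 ± 0.43, adjusted p = 0.00671) was kept in each of those fits.

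Bbc3 and Trp53inp1 passed in no hindgut comparison by the edgeR fit to all 8 libraries; DESeq2 called Bbc3 higher at E16 than at E14 (adjusted p = 0.0345). Bbc3 was at 42.2 and 24.1 CPM at E11, 32.6 and 31.1 CPM at E12, 21.4 and 21.3 CPM at E14 and 31.1 and 32.0 CPM at E16, so the ages differed less than the E11 libraries did between themselves. Trp53inp1 stayed between 33.9 and 53.6 CPM. From E11 to E12 no member passed, beside 2.63% of all genes; 2 had an unadjusted p under 0.05, as had 3301 of the 16481 genes. Groups did not overlap for 4 members, beside 43.4%. DESeq2 called 1, Bax, in that step. Leaving out E11 replicate 1 called Pmaip1 lower at E12, and leaving out E11 replicate 2 called Mdm2 and Pmaip1 higher, so the direction of Pmaip1 turned on which E11 library was kept.

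Of 36 other p53 targets, 12 were higher and 7 lower at E16 than at E11, beside 29.6% and 26.2% of all genes. Their median log2 fold change was -0.02, against 0.05 for all genes. Btg2, an antiproliferative gene, rose from 21.3 ± 0.578 to 939.6 ± 35.5 CPM (adjusted p = 4.23e-06), and the stress kinase gene Plk3 rose from 1.45 ± 0.294 to 83.3 ± 17.0 CPM (adjusted p = 0.000140). Cdkn1a fell from 111 ± 25.1 CPM at E11 to 48.3 ± 6.96 at E12 (log2 -1.20 ± 0.20, adjusted p = 0.0259; from 0.0570 to 0.105 without either E12 or either E16 replicate). It was at 90.5 ± 17.9 CPM at E14 (log2 0.91 ± 0.20 from E12, adjusted p = 0.0126; not called without E12 replicate 2 or E14 replicate 1). At E16 it was at 257 ± 1.02 CPM (log2 1.51 ± 0.20 from E14, adjusted p = 0.00103). Kitl, the ligand of the Kit receptor, fell from 127 ± 24.0 CPM at E11 to 24.7 ± 10.8 at E12 (adjusted p = 0.0168).

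Of 6 anti-apoptotic BCL-2 genes 5 rose and 0 fell from E11 to E16, of 8 death receptor genes 6 rose and 0 fell, and of 8 other pro-apoptotic BCL-2 genes 1 rose and 3 fell, among them the BH3-only gene Bmf (log2 -1.91 ± 0.48; adjusted p = 0.0855 without E16 replicate 1). Bcl2a1b, which has near-identical copies and is known from blood cells, was listed at 0 in both E11 libraries and at 19.3 ± 1.91 CPM at E16, where immune markers were high. Of 15 caspase and apoptosome genes 3 rose and 7 fell, and of 23 regulators 5 rose and 10 fell (1 and 10 with library size scaling). With that scaling 4650 of all 16481 genes tested were called higher and 4572 lower. With TMM scaling 29.6% of all genes were higher and 26.2% lower, the shares to set beside each of these lists. The checkpoint kinase gene Chek1 fell (log2 -1.56 ± 0.28), and 14 of 18 mitosis and S phase genes fell beside it. Trp63, the p53 relative of stratified epithelium, was at 3.76 and 39.5 CPM at E11, at 90.6 and 144 CPM at E14 and at 0 in both E16 libraries. Mdm4 rose from 19.4 ± 0.526 CPM at E12 to 42.5 ± 4.19 at E14 (log2 1.13 ± 0.24, adjusted p = 0.0116). That call was lost without E12 replicate 2 or E14 replicate 1.

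For each member, the genes whose log2(CPM + 1) followed it most closely were listed, over 7 adult and 8 hindgut libraries separately and among 9933 (9934 for Zmat3) and 11967 genes with a mean of 5 CPM or more. These Pearson values describe few libraries that share groups, and the highest of so many is large by construction. Bax was followed most closely by Snrpg (r = 0.999) in adult and by Taf10 (r = 0.998) in hindgut libraries. Ccng1 was followed by Ikbke (r = 0.995) and by Zbtb22 (r = 0.996). Pmaip1 was followed by Bok (r = 0.971) in adult libraries, itself a BCL-2 family gene, and by Map3k8 (r = 0.991) in hindgut libraries. No member had another member among its 2 closest genes.

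The day 8 library gave 3357 barcodes with at least 2000 UMIs, 1000 genes and at most 20% mitochondrial UMIs. The doublet caller marked 3 of them (0.0894%), so doublets were in effect not removed, and 3354 cells were kept, with a median of 20837 UMIs. There is 1 library and so no test; intervals are 95% exact Poisson intervals for UMI sums and cover counting error only. Over all cells, the level was 88.6 CPM (here UMIs scaled by all UMIs) for Trp53 (95% interval 86.5 to 90.6), 127 for Bax, 35.1 for Trp53inp1, 33.6 for Ccng1, 18.7 for Pmaip1, 18.5 for Mdm2 and 12.7 for Bbc3. Zmat3 stood at 7.01 CPM, Phlda3 at 4.00 and Sesn2 at 3.17. In barcodes of 10 to 100 UMIs, which hold free RNA, Trp53 was at 69.0 CPM, Bax at 122, Pmaip1 at 23.4 and Trp53inp1 at 24.3.

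A UMI of Trp53 was seen in 67.8% of cells and of Bax in 83.2%, but of Sesn2 in only 7.27% and of Phlda3 in 7.96%. Cells were grouped into 9 clusters without the members and the other pathway genes, so the members' levels were not used in the clustering. One cluster of 23 cells led by the hormone gene Pyy is left out of the ranges. The rest are called by number and leading genes: 1 (Reg3b, Reg3g; 170 cells), 2 (Lyz1, Mptx1; 583), 3 (histone genes, Top2a; 577), 5 (Fut9, Cdca7, Mcm3; 932), 6 (Fabp6, Gsdmc4; 218), 7 (Nov, Muc2, Spink4; 294), 8 (Cma1, Zg16, Clca1; 496) and 9 (Saa1, Car4, Aqp8; 61).

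Trp53 was highest in clusters 3 (120 CPM, 95% interval 115 to 125) and 5 (116, 112 to 121), followed by cluster 2 (89.2). The mitosis and S phase genes summed to 2906 CPM in cluster 3, 1035 in cluster 5 and 1497 in cluster 2. They summed to 139 in cluster 7, 178 in cluster 8 and 34.9 in cluster 9. Mcm2, 1 of these genes, was at 43.1, 57.6 and 40.0 CPM in clusters 3, 5 and 2. The part of the cell cycle in the Trp53 levels was not tested. Trp53 was lower in the secretory clusters 7 (27.1) and 8 (34.6). In cluster 9, markers of mature absorptive colonocytes summed to 23724 CPM. Only 2 Trp53 UMIs were counted there, a level of 1.46 CPM (0.176 to 5.26). That level is below the 69.0 CPM of free RNA, and the median depth of cluster 9 was 22158 UMIs per cell, against 28993 in cluster 3. Bax followed the same order over a narrower range, from 150 CPM in cluster 3 to 63.3 in cluster 9. After each cell was thinned to 10000 UMIs, a Trp53 UMI was seen in 68.7% of cluster 3, 28.2% of cluster 7 and 0% of cluster 9; unthinned the shares were 92.9%, 32.0% and 3.28%.

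Trp53inp1 ran the other way. It was at 162 CPM in cluster 8 (152 to 173), 107 in cluster 7 and 50.7 in cluster 2, the 3 clusters with the highest goblet and deep crypt secretory sums, and at 8.06 in cluster 3 (6.79 to 9.49). The highest level was 20.1 times the lowest. Thinned to 10000 UMIs, 70.03% of cells of cluster 8 had a UMI against 9.03% of cluster 3; unthinned the shares were 75.2% and 20.6%. Its variance over thinned cells was 2.07 times its mean, against 1.26 for Trp53 and 0.985 for Mdm2. Zmat3 was likewise at 14.1 and 13.5 CPM in clusters 7 and 8 and at 2.91 to 7.80 elsewhere.

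**Figure D4:**
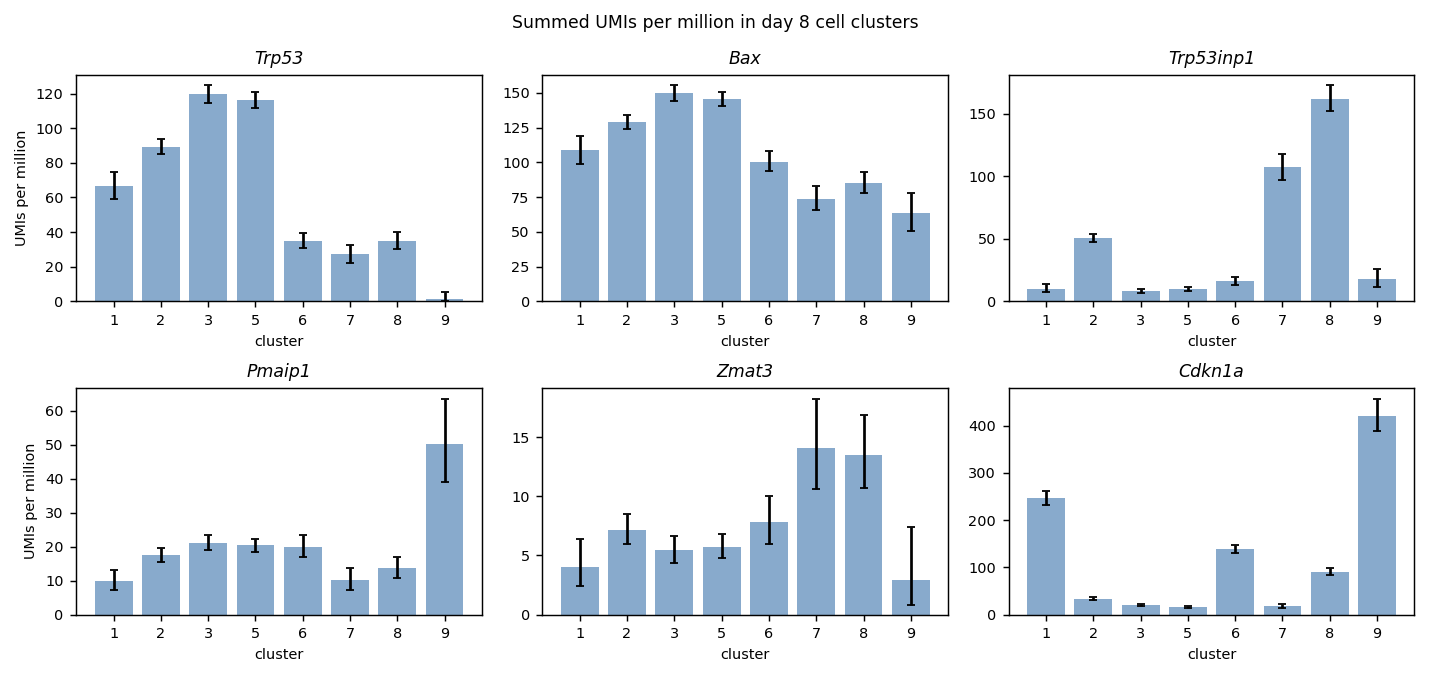
UMI levels in CPM (vertical axes, from 0) of 5 members and of Cdkn1a in the 8 clusters of 50 cells or more (horizontal axis); bars are summed UMIs of the 1 library and error bars 95% exact Poisson intervals. Trp53 is highest in clusters 3 and 5, Trp53inp1 in 7 and 8, and Pmaip1 and Cdkn1a in 9.

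Pmaip1 was at 50.2 CPM in cluster 9 (39.1 to 63.5) and at 9.83 to 21.0 CPM in the other 7. Cdkn1a was also highest there, at 421 CPM (388 to 457), followed by 246 in cluster 1, and was at 16.3 CPM in cluster 5. Both were therefore high in the cluster where Trp53 was lowest. Phlda3 had 0 UMIs in the 61 cells of cluster 9, which allows up to 2.68 CPM. The highest cluster was 1.80 times the lowest for Mdm2 and 2.03 times for Ccng1. For Sesn2 it was 1.96 times, but the lowest cluster held 3 UMIs and the ratio was 7.37 with finer clusters. Bbc3 ranged from 5.82 CPM in cluster 9 to 15.9 in cluster 5, all below its 19.6 CPM in free RNA. Over all cells, Mdm2, Pmaip1 and Phlda3 were also below their free RNA levels of 21.1, 23.4 and 4.95 CPM. Pmaip1 was below that level in each of the 7 clusters other than 9.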

How the data were processed

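In the authors' deposited bulk table each value is a raw read count of a gene symbol (STAR 2.5.3a and HTSeq, GRCm38 and mm10, per the submitters' processing notes; annotation and strand setting are not given in the sources used here). The single-cell values, as deposited, are UMI counts of barcodes (Cell Ranger 3.0.2, per the submitters' processing notes). The 5 entries of the bulk table that name no gene were left out of library sizes; not unique reads were 28.4 to 51.4% of a library's reads. The 3 ChIP-seq samples were not analysed here.

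The 7 adult and the 8 hindgut libraries were fitted separately: filterByExpr by group, TMM, and the two-sided quasi-likelihood test of edgeR 4.0.16 (R 4.3.3), adjusted by Benjamini-Hochberg over all genes of a comparison, threshold 0.05. Levels are CPM on the TMM scale, and SE is the log2 fold change divided by the root of F. Members passed the filter in both fits, all 10 of them. Replicates differed beyond sampling noise in every group (chi-square per degree of freedom 12.1 to 231). Alternatives were library size and RLE scaling, DESeq2 1.42.0, no filter, a replicate block, the 2 groups alone and each replicate left out; genomic span offsets, the F test without E16 and thinning to 10000 UMIs were chosen after seeing the data. The scripts were tested on simulated counts with the fitted spread. In REGEN vs WT, 1 of 100 simulated 2-fold changes and 53 of 100 4-fold changes were called. The counts were 4 and 50 in KO vs WT and 2 and 38 in KO vs REGEN. In the hindgut comparisons they were 35 to 38 and 65 to 78. A gene without a call may therefore still have changed, above all in the adult comparisons. The members and lists were chosen with earlier results of these data known. Named besides the members were Cdkn1a, Mdm4 and, from the fixed lists, up to 6 rises and 6 falls per comparison, ranked by log2 fold change, of those called with a level of at least 5 CPM; not all are printed. Cells were clustered with Leiden (scanpy 1.11.5; resolution 0.5, 2000 variable genes, 30 components), with 107 list genes kept out.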

Additional observations from a re-analysis of the deposited data

How the results depend on the processing

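The 16 calls of members in the pairwise comparisons were set against 224 alternatives; 204 kept the call, 20 lost it and 0 changed sign. Of 70 pairs of a member and a comparison, 23 changed sign under an alternative, and 22 of these had no call and overlapping groups, so no direction is read from them; the other, Bbc3 in KO vs REGEN, became -0.29 with library size scaling. The count of members called in KO vs WT was 2, but 6 with library size scaling, 4 with no filter on low counts and 4 with DESeq2. Of the 13911 genes tested there, 2618 were called higher and 2421 lower, but 1233 and 5328 with library size scaling. DESeq2 called 2919 higher and 2757 lower, and with no filter 2576 and 2630 of 20111 were called. The count of members in E12 vs E11 was 0, but 1 with DESeq2, and in E16 vs E14 it was 4, but 7 with DESeq2. Over all 16481 genes DESeq2 called 1331 higher and 1100 lower in E12 vs E11, against 290 and 144. In E16 vs E14 DESeq2 called 4452 and 3484, against 3394 and 3136. The F test over 4 ages called 6, but 2 without E16. Leaving out 1 replicate gave 1 to 2 calls in KO vs WT, 1 to 2 in KO vs REGEN, 0 to 2 in E12 vs E11 and 0 to 6 in E16 vs E14. The cause was not tested. With a replicate block the counts were 0, 3 and 2 in the adult comparisons (REGEN vs WT, KO vs WT, KO vs REGEN), 0, 2, 4 and 7 in the hindgut comparisons (E12 vs E11, E14 vs E12, E16 vs E14, E16 vs E11) and 7 in the F test, and no call of a member was lost; same-numbered libraries correlated by 0.00964 to 0.107 (adult) and -0.03 to 0.0425 (hindgut), so the numbers were not taken to pair them. In the day 8 cells, resolution 1.0 gave a highest to lowest ratio of 6.88 for Bbc3 and 7.37 for Sesn2, against 2.74 and less than 2 at the lower resolution. Groups of 2 and UMI levels of 3.17 to 7.01 CPM limit what Sesn2, Phlda3 and Zmat3 can show.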
